A study of Homo sapiens with 4 samples.

Results

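Small nucleolar RNA host genes were compared between control and FYB1 knockdown libraries of J-gammal, a human cell line named so in the labels. The members were all rows of the deposited expression table whose Ensembl identifier has, in GENCODE 29, a symbol of SNHG followed by digits, or the symbol GAS5, ZFAS1, DANCR, EPB41L4A-AS1, CYTOR or MIR17HG. There were 29 such rows among 28274 genes. The annotation holds 31 such genes, and SNHG27 and the shorter of the SNHG28 gene models are not among the rows analysed. The study has 4 libraries, 2 controls with titles that carry the letters NC and 2 with titles that carry sh-FYB1. The source name calls the controls untreated. The sources used here do not give the meaning of NC, the use of a control construct, or whether both knockdown libraries carry 1 construct. No label ties the libraries to separate cultures, so p-values reflect only how far these libraries differ within a group, possibly for technical reasons.

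A small nucleolar RNA host gene is transcribed as a long RNA, and its introns contain small RNAs that are cut out after splicing. MIR17HG and CYTOR, members by the rule, hold microRNA genes in RefSeq and none of the classes described next. Box C/D small nucleolar RNAs guide methylation of ribosomal RNA and box H/ACA small nucleolar RNAs guide its conversion of uridine to pseudouridine, while small Cajal body RNAs guide the same marks on spliceosomal RNAs. The spliced host RNA usually codes for no long protein. Many host RNAs start, like messengers of ribosomal proteins, with a run of pyrimidines called a TOP (terminal oligopyrimidine) element, are bound by ribosomes and are degraded by nonsense-mediated decay. GAS5 was named for its accumulation in growth-arrested cells.

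The RefSeq sequences around the annotated starts are printed for some of the host genes. The TOP element is a feature that the choice of members did not use. Genes with a pyrimidine run are over-represented among those printed, and the share among all 25 host genes searched follows below. Each stretch has 30 bases on the transcribed strand, 10 before the start and 20 from it onward, in the coordinates of GRCh38.p14. Capitals mark a C and the unbroken stretch of at least 4 C or T bases that follows it, with the C found between 5 bases before and 10 bases after the start.
SNHG5 (chr6:85678714-85678743, minus strand): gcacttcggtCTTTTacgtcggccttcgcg
ZFAS1 (chr20:49278632-49278661, plus strand): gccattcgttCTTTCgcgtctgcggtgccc
SNHG19 (chr16:2155339-2155368, minus strand): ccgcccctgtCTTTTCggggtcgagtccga
SNHG12 (chr1:28581854-28581883, minus strand): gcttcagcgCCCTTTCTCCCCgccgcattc
SNHG16 (chr17:76557754-76557783, plus strand): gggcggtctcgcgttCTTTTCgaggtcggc
SNHG8 (chr4:118278752-118278781, plus strand): ctcggCCTTTCacattcgggaagcgtcggg
SNHG7 (chr9:136728165-136728194, minus strand): ccttctcgtCCTCTgcgtgcgccggaggct
EPB41L4A-AS1 (chr5:112160516-112160545, plus strand): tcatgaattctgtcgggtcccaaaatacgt
GAS5 (chr1:173869026-173869055, minus strand): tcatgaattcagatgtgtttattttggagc
The first 4 have a C at the start base with at least 4 pyrimidines after it, the next 3 have a run without that placement, and the last 2 have none. The RefSeq start of GAS5 lies upstream of the GENCODE 29 gene whose reads were counted.

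A start sequence was used for 25 of the 29 host genes. Of these, 6 had the C at the start base and at least 4 pyrimidines after it, against 4.04% of 27305 RefSeq promoters. Within the wider search 12 of the 25 had it, against 21.1% of all promoters. One RefSeq start per gene was read, which for several genes, GAS5, SNHG14 and MIR17HG among them, lies outside the counted GENCODE gene. Host genes often have several starts, and no match says only that these letters are not in this window.

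Depth and identity were checked first. The libraries held 16693113 to 20251864 recovered reads, of which host genes took 0.165% and 0.156% (controls) and 0.127% and 0.145% (knockdown). Mitochondrial genes took 4.09% and 4.03%, then 4.92% and 5.14%, and the part of this shift in the results was not tested. FYB1, an adaptor protein of T cell receptor signalling, was measured at 17.6 and 20.1 FPKM without knockdown, against 6.18 FPKM in knockdown library 1 and 4.53 FPKM in knockdown library 2. It fell (log2 fold change -1.65 ± 0.15 (SE), limma-trend adjusted p = 0.0398). FPKM divides a gene's reads by its exon length and by a total for the library. The authors' total was not the sum of reads. It was 16648943 for control 1, with 17597678 recovered reads, and 18436617 for knockdown library 1, with 16693113. In both controls it was below the recovered reads, and in both knockdown libraries above them. Scaled to their geometric mean, the totals were 0.924 and 0.931 (controls) and 1.02 and 1.14 (knockdown). Median-of-ratios factors, each the median over genes of reads divided by the gene's geometric mean, were 0.931 and 0.938, then 1.03 and 1.14. The authors' totals thus followed these factors. All 8 T cell markers examined were above the expression minimum, with control means of 20.7 to 449 FPKM. Of these markers 4 had lower means, and CD3D fell by limma-voom from 449 to 262 FPKM (adjusted p = 0.0200). Of markers of B, myeloid, NK, epithelial and stromal, and erythroid and megakaryocyte cells, CD79A alone passed that minimum. Its mean went from 22.9 to 13.5 FPKM (limma-voom adjusted p = 0.0297), while MS4A1 and PAX5, markers of B cells, were at or under 0.0386 FPKM in every library. In bulk RNA, fewer cells that express a gene and less RNA per cell cannot be told apart.

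Host genes as a group had lower values in the knockdown libraries. Of the 29 members, 21 passed a minimum mean of 1 FPKM over the 4 libraries and were tested. Of the 21, 18 had a lower knockdown mean, where 54.3% of all 13172 tested genes did. Over the same 21 the count was 16 under quantile normalization and 16 with read sums as library totals. With 1 library left out it ranged from 14 (without knockdown library 1) to 19 (without control 2). The median log2 fold change of log2(FPKM + 1), knockdown minus control, was -0.27 over the host genes and -0.03 over all tested genes. Limma-trend with Benjamini-Hochberg adjustment over all tested genes called 0 of the 21 at a threshold of 0.05 (adjusted p from 0.129 to 0.969), where it called 0.205% of all tested genes, 0.137% lower and 0.0683% higher. Unadjusted p values under 0.05 were found for 8 members, 8 lower and 0 higher, beside 14.9% and 8.51% of all tested genes. Limma-voom, which weights each gene by its recovered reads, called 5 members lower and 0 higher, where it called 7.74% of all tested genes, 5.8% lower and 1.94% higher. Its unadjusted p was under 0.05 for 9 lower members and 1 higher member, beside 18.1% and 10.3% of all tested genes. The 5 called were SNHG8, SNHG15, SNHG7, SNHG16 and EPB41L4A-AS1, and none was called by limma-voom when either control or knockdown library 1 was left out, or when the sum of reads set the library total. Without knockdown library 2 the median log2 fold change of log2(FPKM + 1) was -0.44 over the host genes and -0.05 over all tested genes. Without knockdown library 1 these medians were -0.15 and -0.01.

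**Figure D1:**
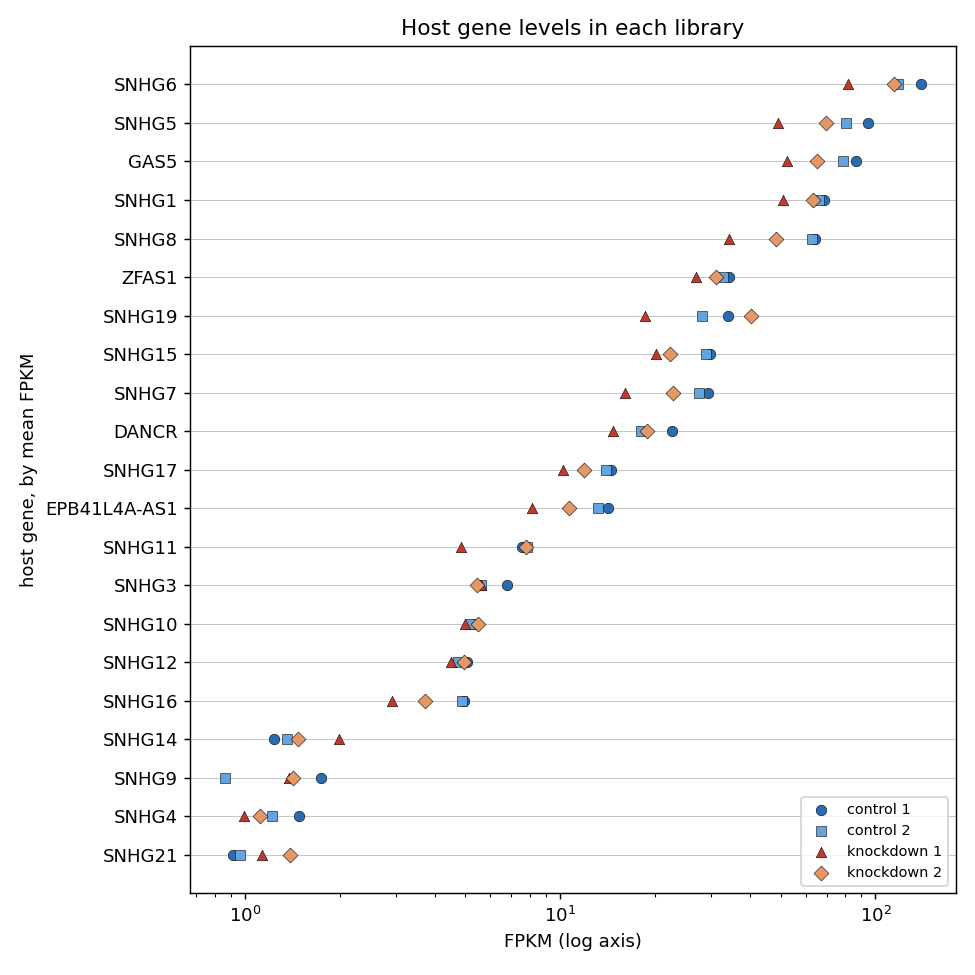
FPKM on a log axis for each of the 21 tested host genes in each library, ordered by mean (circles and squares, controls 1 and 2; triangles and diamonds, knockdown libraries 1 and 2). The knockdown 1 value is the lowest of the 4 for most genes above 5 FPKM, while SNHG10 and SNHG12 hardly separate and SNHG14 and SNHG21 lie higher in the knockdown libraries.

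The hosts of box C/D RNAs included the most abundant members. SNHG6, the host of SNORD87, had the highest mean, with 139 and 118 FPKM in controls 1 and 2 and 81.9 and 115 FPKM in knockdown libraries 1 and 2. Knockdown library 2 lay just under control 2, so the groups did not overlap but the difference was within the spread of the knockdown pair (log2 fold change -0.40 ± 0.20, limma-trend adjusted p = 0.285). SNHG5 holds SNORD50A and SNORD50B and lies on chromosome 6 (85660950 to 85678748, minus strand, hg38). Its values were 94.5 and 80.6 FPKM in the controls and 48.9 and 69.5 FPKM in the knockdown libraries. Its knockdown mean was 67.6% of the control mean, and its limma-voom adjusted p of 0.0529 lay just past the threshold.

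GAS5 holds 10 box C/D genes and 1 H/ACA gene in RefSeq, on chromosome 1 (173863900 to 173868882, minus strand, hg38). It had 86.4 and 78.8 FPKM in the controls and 52.6 and 65.3 FPKM in the knockdown libraries, from 3518 to 5226 reads per library. Both knockdown values were under both controls, and the log2 fold change was -0.49 ± 0.15 (limma-trend adjusted p = 0.157, limma-voom adjusted p = 0.0511). SNHG1, the host of 8 box C/D genes, had 68.8 and 66.3 FPKM in the controls and 51 and 63.4 FPKM in the knockdown libraries. Its knockdown library 2 stood close to the controls, and its log2 fold change of -0.24 ± 0.15 turned to 0.044 under quantile normalization (limma-trend adjusted p = 0.343 and 0.733).

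ZFAS1, the host of SNORD12, SNORD12B and SNORD12C, showed the same order at 34.3 and 32.9 FPKM in the controls and 27 and 31.3 FPKM in the knockdown libraries. Its log2 fold change of -0.20 ± 0.12 became 0.021 under quantile normalization, so no direction is given. SNHG16, the host of SNORD1A, SNORD1B and SNORD1C on chromosome 17 (76557766 to 76565348, plus strand, hg38), was the one C/D host that fell by limma-voom. It had 4.96 and 4.89 FPKM in the controls and 2.92 and 3.72 FPKM in the knockdown libraries, from 289 to 443 reads. Its control values nearly coincided and lay above both knockdown values (log2 fold change -0.46 ± 0.12, limma-voom adjusted p = 0.0483). AC015802.6 shares 30.6% of the SNHG16 exon bases and had 3 to 5 reads per library, and MCMDC2 shares 29.3% of those of SNHG6 and had 1 to 4.

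SNHG19, the host of SNORD60, was the member with the widest spread. It had 34.1 and 28.2 FPKM in the controls and 18.6 and 40.4 FPKM in the knockdown libraries, so the knockdown libraries bracketed both controls. These values rest on 117 to 283 reads over 342 bases of exon. SNHG14 is the long host of the SNORD115 and SNORD116 clusters in the imprinted region of chromosome 15 (24978583 to 25419462, plus strand, hg38) and holds 83 snoRNA genes in RefSeq. It had 1.23 and 1.36 FPKM in the controls and 1.99 and 1.47 FPKM in the knockdown libraries, both above the controls. Its log2 fold change was 0.24 ± 0.17 and became -0.12 once a trend on exon length and GC content was removed, where SNHG14 has 43324 bases of merged exon and the median tested host gene 3344.

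Hosts of box H/ACA RNAs held 4 of the 5 genes that limma-voom called. These were 4 of 10 tested hosts with an H/ACA and no C/D gene, beside 1 of 9 with a C/D gene. The medians of the 2 sets were -0.31 and -0.24. In 6 hosts of each set both knockdown libraries lay under both controls. The C/D hosts GAS5 and SNHG5, with limma-voom adjusted p of 0.0511 and 0.0529, lay just past the threshold. SNHG8, the host of SNORA24 on chromosome 4 (118278709 to 118279823, plus strand, hg38), had the largest difference, with 64.4 and 62.7 FPKM in the controls and 34.2 and 48.2 FPKM in the knockdown libraries. It fell by limma-voom, to 64.9% of the control mean (log2 fold change -0.63 ± 0.18 by limma-trend, limma-voom adjusted p = 0.0365). The controls differed by far less than the knockdown pair, whose values both lay below them.

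SNHG15, the host of SNORA9 on chromosome 7 (44983023 to 44986961, minus strand, hg38), had 29.8 and 29.1 FPKM in the controls and 20.2 and 22.3 FPKM in the knockdown libraries. It was the member whose knockdown libraries lay closest to each other among the 5, and it fell by limma-voom (adjusted p = 0.0383) and had the lowest limma-trend adjusted p of all members, 0.129. SNHG7 holds SNORA17A and SNORA17B on chromosome 9 (136721366 to 136728184, minus strand, hg38). It had 29.5 and 27.6 FPKM in the controls and 16 and 22.7 FPKM in the knockdown libraries, a fall by limma-voom (adjusted p = 0.0483). FAM69B, a coding gene on the other strand, covers 25.2% of its exon bases and went from a control mean of 17.8 FPKM to 11.6 FPKM, also lower by limma-voom (adjusted p = 0.0275). Since no source used here says whether counting used strand, reads of SNHG7 and FAM69B cannot be told apart where they overlap.

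EPB41L4A-AS1, the host of SNORA13 on chromosome 5 (112160526 to 112164276, plus strand, hg38), had 14.2 and 13.1 FPKM in the controls and 8.16 and 10.6 FPKM in the knockdown libraries. The groups did not overlap, and it fell by limma-voom (log2 fold change -0.55 ± 0.15, adjusted p = 0.0494). EPB41L4A, the coding gene on the opposite strand that shares 49.6% of its exon bases, had 1 to 4 reads per library. SNHG17, which holds 4 copies of SNORA71, had 14.4 and 14 FPKM in the controls and 10.2 and 11.9 FPKM in the knockdown libraries, a difference larger than either spread that no adjusted test called (limma-voom adjusted p = 0.0988).

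Among the other H/ACA hosts, DANCR, a host of SNORA26 known for holding progenitor cells undifferentiated, had 22.6 and 18.1 FPKM in the controls and 14.7 and 18.8 FPKM in the knockdown libraries. SNHG11 had 7.54 and 7.81 FPKM in the controls and 4.84 and 7.78 FPKM in the knockdown libraries. In both genes knockdown library 2 fell inside the control range, and without knockdown library 1 the log2 fold change of SNHG11 was 0.017. SNHG3, the host of the SNORA73 pair, ranged from 5.46 to 6.76 FPKM and SNHG4, the host of SNORA74 copies, from 0.995 to 1.48 FPKM. SNHG3 overlapped between groups, and neither was called. SNHG9 rested on 8 to 16 reads per library.

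SNHG12 and SNHG10 had nearly equal means in both groups. SNHG12 holds SNORD99 and 3 H/ACA genes and had control and knockdown means of 4.90 ± 0.24 and 4.71 ± 0.31 FPKM (SD, n = 2 each). SNHG10, the host of SCARNA13, had means of 5.26 ± 0.12 and 5.23 ± 0.34 FPKM. Their log2 fold changes, -0.05 ± 0.10 and -0.01 ± 0.10, were within 1 standard error of 0. GLRX5, on the opposite strand, shares 20.1% of the SNHG10 exon bases, with means of 51 and 39.5 FPKM, and was not called. SNHG21, the host of SCARNA15, rested on 16 and 17 control reads and 22 and 30 knockdown reads, with a log2 fold change of 0.22 ± 0.18. It shares 72.9% of its exon bases with a second noncoding gene on its strand, so these reads are uncertain.

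**Figure D2:**
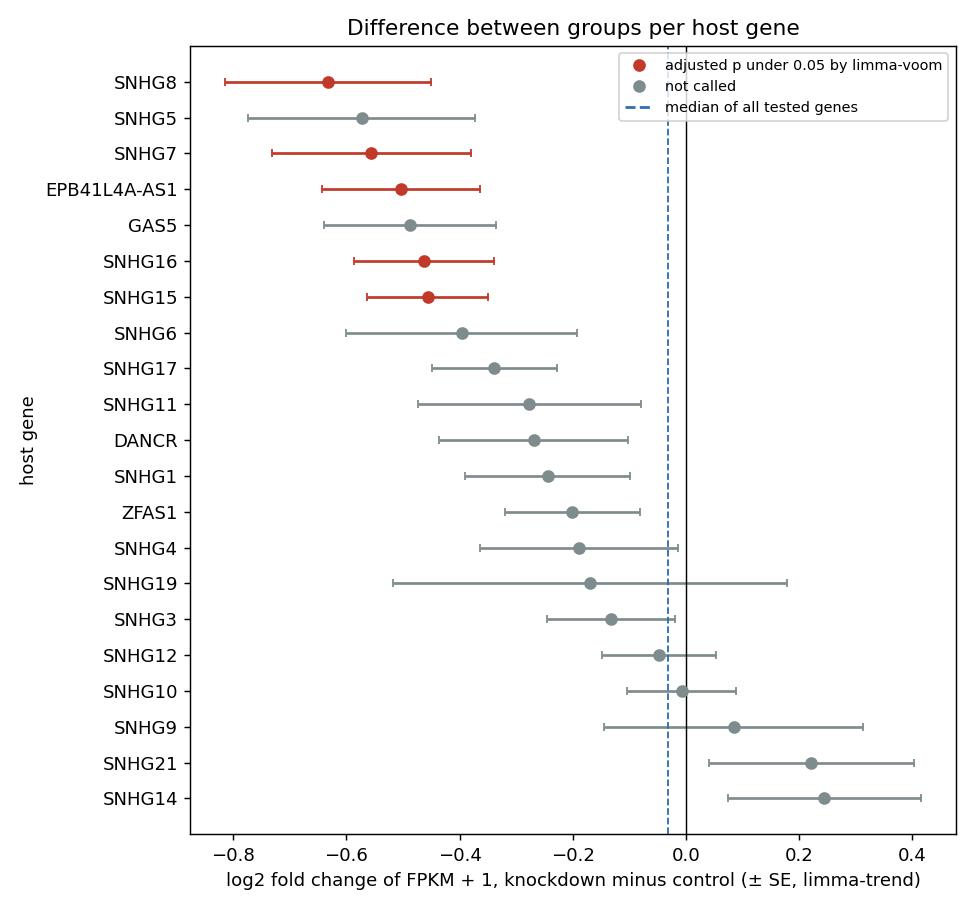
Log2 fold change of FPKM + 1 (knockdown minus control, ± SE from limma-trend) for each tested host gene, with the 5 genes called by limma-voom in red and the median of all tested genes, -0.03, as a dashed line. The values run from -0.63 for SNHG8 to 0.24 for SNHG14.

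The 8 members under the expression minimum had little signal. SNHG20 was just outside it with a mean over the 4 libraries of 0.892 FPKM, and SNHG21 just inside with 1.10 FPKM. MIR17HG, the precursor of the miR-17 to miR-92a cluster, had 27 and 19 control reads and 42 and 69 knockdown reads. Its knockdown mean of 0.809 FPKM was 205% of the control mean, and in a fit over all 28274 genes it was not called (log2 fold change 0.37 ± 0.14, limma-trend adjusted p = 0.382). CYTOR, a cytoplasmic long noncoding RNA, had means of 0.171 and 0.172 FPKM. SNHG25, SNHG22 and SNHG18 had at most 6 reads in any library, and SNHG26 and SNHG28 between 23 and 37.

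The more abundant members held most of the lower values. All 15 whose mean reached 5 FPKM had lower knockdown means, where 64.4% of all genes at that level did, and their median was -0.34 against -0.11 for all genes at that level. The 6 members between 1 and 5 FPKM were split, with 3 lower and 3 higher. For 12 of the 21 tested members both knockdown libraries were under both controls and for 2 both were above, where 34.6% and 26% of all tested genes were so placed. Lower values were more common among abundant genes in general. Of the 15 members at 5 FPKM or more, 10 lay under both controls in both knockdown libraries, beside 45.1% of all genes at that level. Limma-voom called 4 of the 15 lower, beside 8.85%. The unadjusted limma-trend p was under 0.05 for 7 lower, beside 21.2%.

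Knockdown library 1 was lower than knockdown library 2 for 19 of the 21 members (90.5%), where this held for 58.0% of all tested genes. Against the control mean the median member was at -0.44 in knockdown library 1 and at -0.15 in knockdown library 2, and all tested genes at -0.05 and -0.01. Control 1 was above control 2 for 18 of the 21, with a median difference of 0.08, where all tested genes had 55.2% and 0.02. FYB1 itself was lower in knockdown library 2 than in knockdown library 1, while the median member differed less from the controls in knockdown library 2. SNHG3, SNHG9 and SNHG21 lay farther from the control mean in knockdown library 2. With 1 library on each side, a link to the level of FYB1 was not tested. Knockdown library 2 was under both controls for 13 of the 21 members (61.9%), beside 41.8% of all tested genes. The 5 genes called by limma-voom, GAS5 and SNHG5 were among them. Genes picked by a low p in the same 4 libraries tend to be placed so, and their placement is no separate support.

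**Figure D3:**
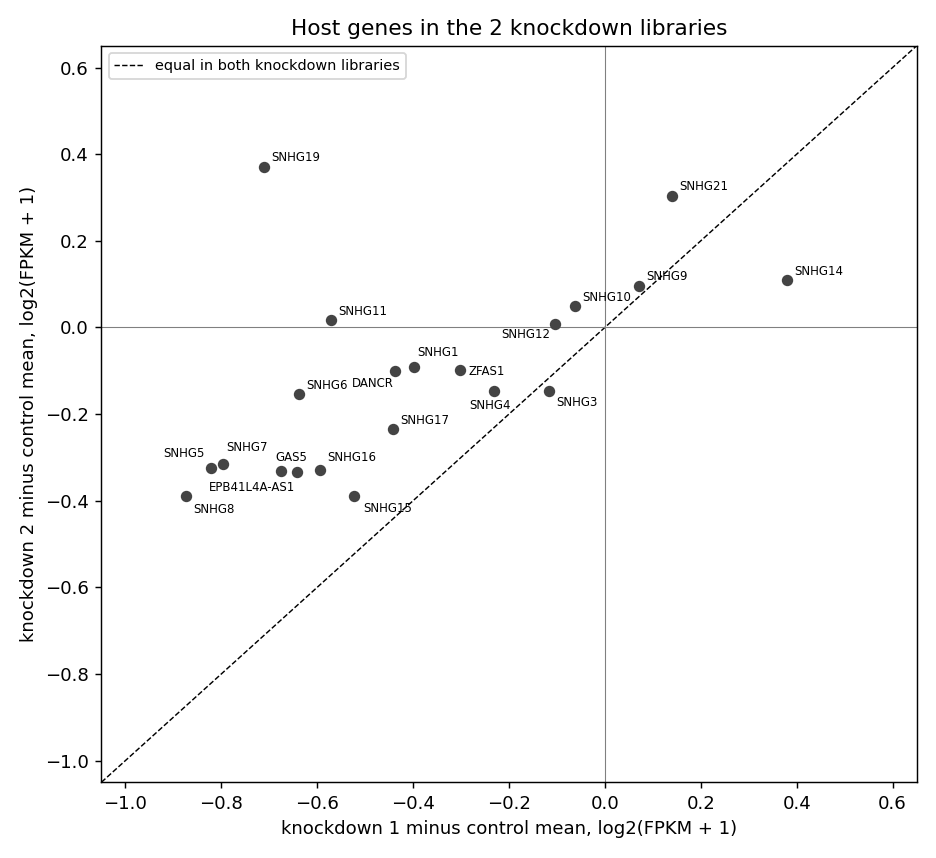
Difference from the control mean in log2(FPKM + 1) for each tested host gene, knockdown library 1 on the x axis and knockdown library 2 on the y axis, with the line of equal values dashed. Of the 21 genes, 19 lie above the line, and SNHG19 lies farthest from it.

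Genes that resemble or serve the host genes were compared with them. Other genes of long noncoding biotypes had a median log2 fold change of 0.10 over 1181 tested genes, with 38.1% lower, and the 159 of them whose mean reached 5 FPKM one of -0.05. Protein-coding genes with a small nucleolar RNA gene inside them had a median of -0.03 over 206 tested genes, with 110 lower. Limma-voom called 8 of these lower and 1 higher, and limma-trend 0, with 25 lower and 12 higher at unadjusted p under 0.05. The lower calls were 3.88% of the coding hosts by limma-voom, beside 5.8% of all tested genes, and 12.1% at an unadjusted limma-trend p, beside 14.9%. The lower ones included SLC25A3, the mitochondrial phosphate carrier, which went from 58.3 ± 3.84 to 38.0 ± 3.50 FPKM (SD, n = 2 each; limma-voom adjusted p = 0.0278). They also included TSR1, a factor of small ribosomal subunit assembly, with 9.35 and 8.66 FPKM in the controls and 6.21 and 5.86 FPKM in the knockdown libraries (adjusted p = 0.0283). PPAN, a nucleolar protein of large subunit assembly, fell from a mean of 4.34 to 2.15 FPKM (limma-voom adjusted p = 0.0304), and PARP16, an ADP-ribosyltransferase of the endoplasmic reticulum, from 7.12 to 4.60 FPKM (adjusted p = 0.0315).

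In addition, 4 genes that received an SNHG symbol after GENCODE 29 were looked up after the values of the members had been seen. LRRC75A-AS1, now SNHG29, had 176 and 154 FPKM in the controls and 96.6 and 125 FPKM in the knockdown libraries, and it fell by limma-voom (adjusted p = 0.0466). C6orf48, now SNHG32, had 97.6 and 91.5 FPKM in the controls and 51.6 and 73.9 FPKM in the knockdown libraries, and it fell as well (limma-voom adjusted p = 0.0417). C6orf48 is also among the 8 coding hosts called lower. Both showed the order seen in SNHG5 and GAS5, with knockdown library 1 lowest and knockdown library 2 between it and the controls. LINC02001, now SNHG30, overlapped between groups, and AC016708.1, now SNHG31, had at most 8 reads.

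Proteins of the small nucleolar ribonucleoproteins and their assembly factors had 18 of 22 tested members lower, with a median of -0.21. Limma-trend called 0 of them, with 8 lower and 0 higher before adjustment, and limma-voom 1. These were 36.4% of the list, beside 14.9% of all tested genes, and 4.55%, beside 5.8%. The gene called was NHP2, a core protein of the H/ACA particle, at 31.7 ± 2.79 FPKM in the controls and 19.8 ± 5.41 FPKM in the knockdown libraries (adjusted p = 0.0376). FBL, the methyltransferase of the C/D particle, had means of 146 and 102.4 FPKM and a limma-voom adjusted p of 0.0624. Its values and those of DKC1, the pseudouridine synthase of the H/ACA particle with means of 20.5 and 17.8 FPKM, are given after they were seen. Factors of nonsense-mediated decay were split, 8 lower and 8 higher with a median of -0.04. UPF2, which activates the decay helicase UPF1, rose by limma-voom from 7.37 to 10.5 FPKM (adjusted p = 0.0447). Limma-voom called 0 of the 16 lower and 1 higher, beside 5.8% and 1.94% of all tested genes. Limma-trend called 0 of the 16. Its unadjusted p was under the threshold for 3 lower and 3 higher, beside 14.9% and 8.51% of all tested genes.

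Regulators of TOP messenger translation were also split. EIF4EBP1, an inhibitor of cap-dependent translation, fell by limma-voom from 52.3 ± 2.87 to 28.4 ± 5.75 FPKM (adjusted p = 0.0122). Its relative EIF4EBP2 rose by limma-voom from 22.1 to 30.5 FPKM (adjusted p = 0.0414), and TIA1, an RNA-binding protein of stress granules, from 14.6 to 20.8 FPKM (adjusted p = 0.0339). Limma-voom thus called 1 of the 8 lower and 2 higher, beside 5.8% and 1.94% of all tested genes. Limma-trend called 0 of the 8. Its unadjusted p was under 0.05 for 1 lower and 2 higher, beside 14.9% and 8.51% of all tested genes. Enzymes that open intron lariats and trim their products had a median of 0.06 over 5 genes and no call by either test. At an unadjusted limma-trend p under 0.05 there were 1 lower and 0 higher, beside the same 14.9% and 8.51%. XRN2, a nuclear exonuclease, had means of 39.3 and 32.4 FPKM, and DBR1, the lariat debranching enzyme, 13.3 and 12.8 FPKM.

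Host genes with and without the pyrimidine run were compared, with no test. The 10 tested hosts with the run near the start were all lower as reported, with a median of -0.30. Of 8 without it, GAS5 and SNHG14 among them, 6 were lower, with a median of -0.19. With the run, ZFAS1, SNHG12 and SNHG19 changed sign under some setting. Without it, SNHG1, SNHG10, SNHG11 and SNHG14 did so. SNHG6, SNHG9 and SNHG15 were tested but had no start sequence used, so they are in neither set. Over all tested genes with a start sequence the medians were -0.07 with the run and -0.04 without. EPB41L4A-AS1, printed above with no run, had a log2 fold change of -0.50, between those of SNHG5 at -0.57 and SNHG16 at -0.46, which have one. SNHG12 and SNHG19, which have the C of the run at the start base, were not called by either test.

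Genes that start within 1 kb of a host gene on the opposite strand did not follow one direction. RPS2, the small-subunit ribosomal protein gene beside SNHG9, fell from 1552 to 901 FPKM by limma-voom (adjusted p = 0.035), and ACAA2, a mitochondrial thiolase beside SNHG22, fell from 11.2 and 9.82 FPKM in the controls to 5.63 and 6.38 FPKM in the knockdown libraries (adjusted p = 0.0121). ZNFX1, which overlaps ZFAS1, rose by limma-voom from 6.67 to 9.14 FPKM (adjusted p = 0.044). ZBTB37, beside GAS5, had 1.27 and 1.53 FPKM in the controls and 2.73 and 1.77 FPKM in the knockdown libraries, higher in both while GAS5 was lower in both, and it was not called. SLC3A2, beside SNHG1, and TRAF7, beside SNHG19, had lower knockdown means and were not called. Limma-trend called none of these neighbours (adjusted p = 0.163 for RPS2, 0.0938 for ACAA2 and 0.126 for ZNFX1). Limma-voom called 7.74% of all tested genes, 5.8% lower and 1.94% higher.

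The small RNAs inside the host genes were poorly sampled. Of 94 small RNA genes inside a listed host and outside its exons, 33 were in the table, and of 52 that touch an annotated exon of the host, 0 were. None had more than 27 reads in a library. Neither test called any of the 19 that passed the minimum. Before adjustment limma-trend had 2 lower and 4 higher under 0.05, beside 14.9% and 8.51% of all tested genes. SNORA73B, inside SNHG3, had 12 and 7 control reads and 2 and 2 knockdown reads, and SNORD116-6, inside SNHG14, had 0 and 0 and then 6 and 3. Within SNHG17, SNORA71D had 5 and 6 control reads and 1 and 0 knockdown reads, whereas SNORA71A had 8 and 8 and then 15 and 13. The mature small RNAs are shorter than the fragments of a messenger RNA library usually are, so these reads do not measure their levels.

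The size of the group's difference varied with the setting. When read sums replaced the authors' totals, the median of all tested genes moved from -0.03 to 0.08, and host genes lay 0.22 below it, where they lay 0.24 below it before. Written as differences from the median of all tested genes, the host median was -0.14 under quantile normalization, -0.15 after removal of the length and GC trend, -0.13 without knockdown library 1 and -0.39 without knockdown library 2.

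**Figure D4:**
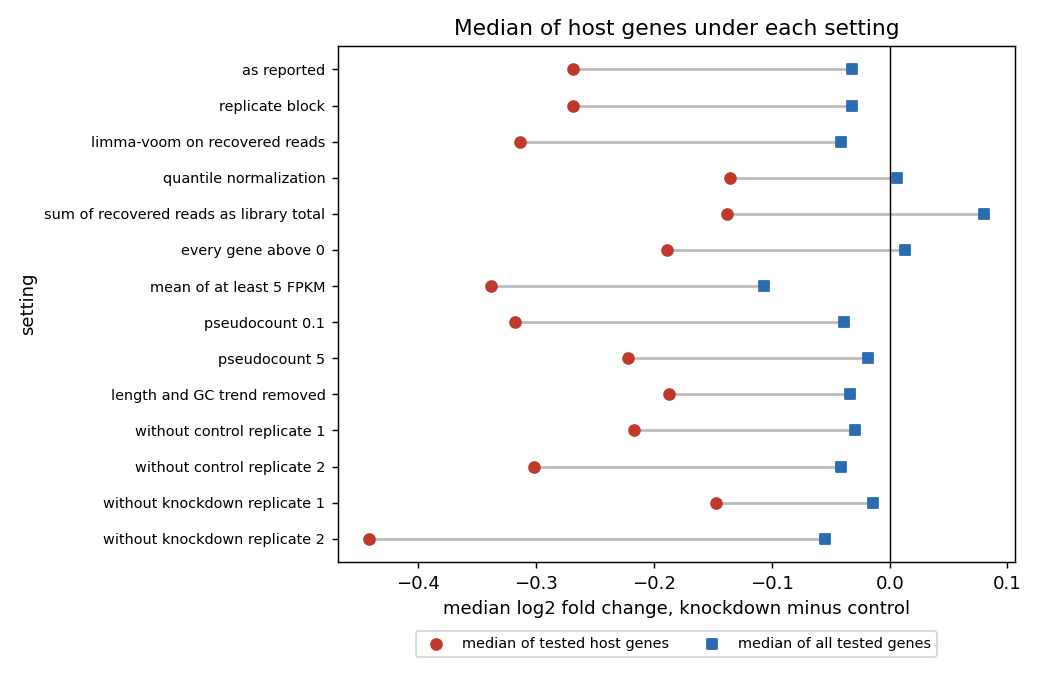
Median log2 fold change (knockdown minus control) of the tested host genes (circles) and of all tested genes (squares) under each setting. The host median is under the median of all genes in every setting shown, and closest to it without knockdown replicate 1.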

How the data were processed

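RNA of 4 libraries was sequenced, and the deposited table's header names no unit. The authors' values were taken as FPKM because, multiplied by GENCODE 29 merged exon lengths, 100% of them are whole multiples of a constant of their library within 0.001. Dividing by that constant gave whole reads. Reads were aligned with HISAT2 2.0.5 to hg38, per the submitters' processing notes. The sources used here give neither the counter nor its strand setting. Merged exons take in annotated retained introns, which lengthens host gene models.

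The members and lists were chosen with earlier results of these data known. Limma-trend (limma 3.58.1, R 4.3.3) was fitted on log2(FPKM + 1), pseudocount 1, for 13172 genes whose mean reached 1 FPKM, with group as the only term and Benjamini-Hochberg adjustment at 0.05. Limma-voom used the recovered reads with the authors' totals. Log2 fold changes understate changes of low genes. Both tests were tested on simulated data.

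Named were all tested members, every member under the minimum, list members past a threshold (up to 4 by limma-voom), otherwise the 2 with the highest mean, and FYB1. Alternatives were a replicate block, quantile normalization, read sums as totals, other filters and pseudocounts, a length and GC correction (13165 genes) and each library left out. Start sequences are from RefSeq (GRCh38.p14).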

Additional observations from a re-analysis of the deposited data

How the results depend on the processing

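With 2 libraries per group the number of genes called by limma-trend over the whole table was unstable. It was 27 as reported, 781 with the replicate block, 1019 by limma-voom on recovered reads, 45 under quantile normalization, 76 with read sums as totals, 0 with every gene above 0 (3938 at an unadjusted p under 0.05), 181 at a mean of at least 5 FPKM, and 0 to 406 with any 1 library left out. It was 0 without knockdown replicate 1 and without knockdown replicate 2, with 2205 and 4841 genes at an unadjusted p under 0.05. The limma-trend count of host genes was 0 in all these fits, the replicate block included, and 5 by limma-voom. By limma-voom the count was 5 with the replicate block, 4 of them the same genes, 0 to 12 without 1 library (0 without either control or knockdown replicate 1), and 0 with read sums (8 at an unadjusted p under 0.05). The limma-voom alternatives were chosen after seeing the data. Same-numbered libraries deviated in opposite directions (correlation -0.21 across genes). A crossed replicate block, also added later, called 1910 of 13172 genes and 7 of 21 host genes. This pairing was set after seeing these data and takes up spread within the groups, so its counts are no support for a difference. The labels do not say that numbers pair libraries.

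The host median kept its sign in every setting, from -0.44 without knockdown replicate 2 to -0.14 under quantile normalization. Of 288 values of single members under these alternatives, 15 had the opposite sign, none of them called, and the cause was not tested. Under quantile normalization these were SNHG1 (0.044), ZFAS1 (0.021), SNHG19 (0.019) and SNHG9 (-0.0062). With read sums they were SNHG10 (0.11) and SNHG12 (0.066), and after the length and GC correction SNHG10 (0.087), SNHG12 (0.043) and SNHG14 (-0.12). With 1 library left out, SNHG19 ranged from -0.71 to 0.37, SNHG11 from -0.57 to 0.017, SNHG10 from -0.063 to 0.049 and SNHG12 from -0.10 to 0.0084, each turning without knockdown replicate 1 (SNHG10, at 0.012, also without control replicate 1). SNHG9 ranged from -0.19 without control replicate 2 to 0.36. Depth limits SNHG9, SNHG21 and the small RNA genes, which rest on at most 30 reads per library.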
